A study of Mus musculus with 4 samples.

Results

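Immediate early transcription factors were examined in livers of fasted Cnot3+/- and wild-type mice through 11 probe sets, which stand for 10 genes. They are the probe sets that the array platform annotates with exactly 1 gene symbol, that symbol being Egr1, Fos, Fosb, Jun, Junb, Ier2, Ier3, Atf3, Myc or Dusp1, out of 34958 probe sets with 1 symbol, for 18194 genes, and 45101 in all. Jun has 2 probe sets and each other gene has 1. The samples are livers of 2 mice labelled as Cnot3 heterozygotes, here Cnot3+/- 1 and Cnot3+/- 2, and of 2 wild-type mice, here wild-type 1 and wild-type 2. All 4 were C57BL/6J males, 12 weeks old, fed normal chow, housed singly and without food for 24 h before sampling. The labels do not say how the Cnot3 allele was altered. Each liver gave total RNA that was labelled with biotin as cRNA and read on a one-colour Affymetrix array, and the deposited values are log2 expression values made with RMA. Every value given here as a level is on that log2 scale, where 1 unit is a factor of 2, and every difference is Cnot3+/- minus wild-type unless another pair is named.

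Immediate early genes are switched on within minutes of a stimulus, because the factors that start their transcription are already present and need only be phosphorylated. Growth factors, cytokines and stress reach them through MAP kinases, which act on the serum response factor SRF with its ELK partners, on CREB and on JUN itself. Their mRNAs are short-lived: AU-rich elements in them bind proteins such as ZFP36, which recruit the CCR4-NOT complex that removes poly(A) tails. CNOT3 is a subunit of that complex. In liver these genes are known for their brief induction after partial hepatectomy, after injury and after handling of the tissue.

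Windows around the start of 7 of the 10 genes were in the promoter table of RefSeq, build GRCm38.p6, each running from 250 bases before to 50 bases after the annotated start. The windows of Fos, Jun and Atf3 are shown because these genes differed widely between the 2 Cnot3+/- arrays, and that of Dusp1 because it hardly differed on any array. They are written along the gene's strand, with matches to TATAAA, TGACGTCA and the shorter TGACG, which is part of TGACGTCA, in capitals. They cover chr12:85473640-85473939 on the plus strand for Fos, and on the minus strand chr4:95052173-95052472 for Jun, chr1:191183284-191183583 for Atf3 and chr17:26508423-26508722 for Dusp1.
Fos: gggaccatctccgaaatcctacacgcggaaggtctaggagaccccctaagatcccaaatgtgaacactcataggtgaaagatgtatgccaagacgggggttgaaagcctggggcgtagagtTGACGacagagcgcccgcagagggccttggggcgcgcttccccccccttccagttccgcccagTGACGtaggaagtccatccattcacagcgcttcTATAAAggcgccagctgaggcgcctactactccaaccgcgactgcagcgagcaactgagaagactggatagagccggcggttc
Jun: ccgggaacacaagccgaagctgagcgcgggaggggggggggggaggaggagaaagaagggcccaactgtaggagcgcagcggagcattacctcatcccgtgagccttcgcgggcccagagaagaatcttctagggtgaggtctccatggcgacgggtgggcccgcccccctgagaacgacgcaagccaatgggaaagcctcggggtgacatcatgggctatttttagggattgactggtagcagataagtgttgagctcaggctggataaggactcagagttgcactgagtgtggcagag
Atf3: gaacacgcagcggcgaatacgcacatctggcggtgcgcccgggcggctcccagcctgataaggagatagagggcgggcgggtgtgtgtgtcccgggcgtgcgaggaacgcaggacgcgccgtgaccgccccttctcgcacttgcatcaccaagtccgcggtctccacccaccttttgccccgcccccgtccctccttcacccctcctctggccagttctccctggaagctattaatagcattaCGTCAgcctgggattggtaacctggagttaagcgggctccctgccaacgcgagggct
Dusp1: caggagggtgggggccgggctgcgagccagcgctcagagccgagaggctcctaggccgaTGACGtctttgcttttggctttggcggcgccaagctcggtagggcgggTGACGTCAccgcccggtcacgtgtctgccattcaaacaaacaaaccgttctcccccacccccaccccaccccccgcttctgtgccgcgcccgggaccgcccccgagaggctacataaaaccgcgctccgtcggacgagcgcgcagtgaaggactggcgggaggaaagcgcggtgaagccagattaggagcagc

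The full cyclic AMP response element TGACGTCA, the site that CREB and ATF proteins bind, was found on either strand in the Dusp1 window alone among the 7, 143 bases upstream of the start, and in 1.79% of all 32851 windows. TGACG, its core, was searched after the sequences had been seen and lay in 5 of the 7 windows, against 20.8% of all. Fos had it 129 and 66 bases upstream and Atf3 had it on the opposite strand 7 bases upstream. Dusp1 had it 191 bases upstream and on both strands of the full element. Fosb and Junb also held it, 60 and 106 bases upstream. TATAAA was found in Fos, 33 bases upstream, and in Junb at the start itself, against 13.6% of all windows. None of the 7 windows matched the AP-1 site TGANTCA (7.81% of all windows), the EGR site GCGTGGGCG (0.612%), the ETS site CCGGAA (14.9%) or the CArG box that SRF binds (1.63%). The shorter GGAA within that ETS site was not searched by itself. The window of Jun held none of the motifs searched, nor did that of Ier3. Only exact matches were counted, so variants of these motifs were not searched and their absence is not shown. The Jun window holds such a variant of TGACGTCA, TGACATCA. The windows end 250 bases upstream, so sites further out were not searched and their absence is not shown. Egr1, Ier2 and Myc had no window.

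The arrays are described before the genes because the Cnot3+/- arrays were at least 2-fold apart at more probe sets than the wild-type arrays. The median log2 values of the 4 arrays lay between 4.62 and 4.65, and no 2 arrays held identical values. The arrays Cnot3+/- 1 and Cnot3+/- 2 were at least 2-fold apart at 2.68% of the 27022 probe sets tested, and the wild-type arrays at 0.614%. Cnot3+/- 2 was the higher of its pair in 626 of those 723 cases. The gap between 3′ and 5′ control probe sets, in log2 units and a sign of RNA quality, was 1.60 and 1.49 in Cnot3+/- 1 and 2 and 1.46 and 1.54 in wild-type 1 and 2 for Actb. For Gapdh it was 0.19 and 0.31 in Cnot3+/- 1 and 2 and 0.11 and 0.25 in wild-type 1 and 2. The targeted gene, Cnot3, passed the test on neither of its 2 probe sets. It read 7.70 and 7.86 in Cnot3+/- 1 and 2 and 7.48 and 8.14 in wild-type 1 and 2 on its brighter probe set. The 2 genotypes differed by -0.03 there (SE 0.25, limma adjusted p = 1). On the second probe set it read 5.541 and 5.539 in Cnot3+/- 1 and 2 and 5.33 and 5.52 in wild-type 1 and 2, both Cnot3+/- arrays being above both wild-type arrays, with a difference of 0.11 (SE 0.15, adjusted p = 0.9999). Cnot3 thus gives no check of the genotype labels, which are taken as they stand for every direction below. The labels call the samples biological replicates.

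No immediate early gene passed the test between the genotypes. Egr1 stood higher on both Cnot3+/- arrays, by a mean of 2.50-fold that was carried largely by Cnot3+/- 2. In log2 units it lay 0.54 above the wild-type mean on Cnot3+/- 1 and 2.10 above it on Cnot3+/- 2. Of all probe sets tested, 14.6% were likewise higher on both Cnot3+/- arrays without overlap. Fos, Jun and Atf3 stood high on Cnot3+/- 2 alone, and Dusp1, Ier2 and Myc lay close to wild-type on average. Of the 11 probe sets, 10 were bright enough to be tested, for 9 of the 10 genes, and 0 of these 10 had a limma adjusted p below 0.05. Over all probe sets tested, 0.0074% passed upward and 0% downward. The probe sets that passed were those of Lcn2 and Cox6b2. At an unadjusted p below 0.05 there was 1 immediate early probe set, that of Egr1, against 3.72% of all probe sets. Differences were above 0 for 8 of the 10 and below 0 for 2, with a median of 0.44, where 48.5% of all probe sets tested were above 0 with a median of -0.01. That median depended on Cnot3+/- 2, being -0.10 without that array (3 of 10 above 0, against 50.1% of all) and 0.95 without Cnot3+/- 1 (10 of 10, against 47.7%). With 2 arrays per group an exact permutation test of a single value cannot go below a two-sided p of 0.333, and so none is given.

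**Figure D1:**
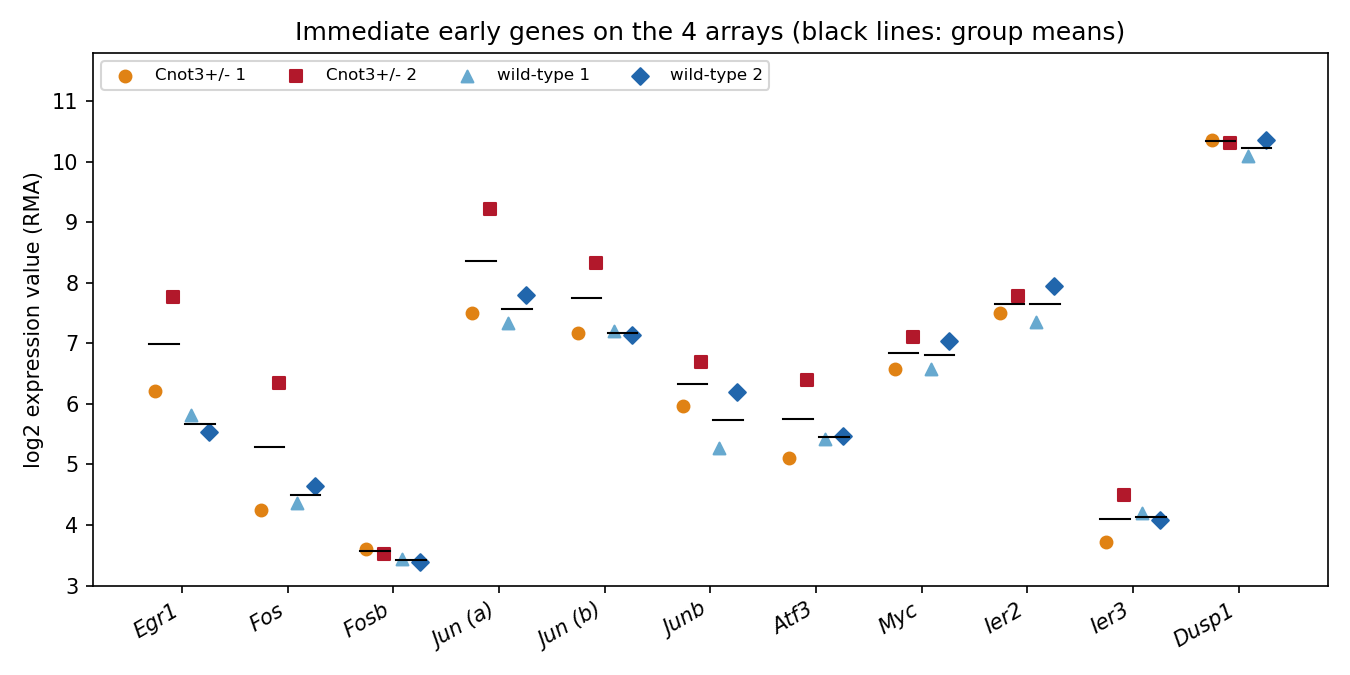
Log2 expression value (RMA, vertical axis) of the 11 immediate early probe sets on the arrays Cnot3+/- 1, Cnot3+/- 2, wild-type 1 and wild-type 2, each point being 1 mouse and each black line the mean of 2. Jun (a) is probe set 1417409_at and Jun (b) is 1448694_at. The square of Cnot3+/- 2 stands well above the other 3 points for Egr1, Fos and both Jun probe sets, and among them for Dusp1 and Ier2.

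Egr1, a zinc finger factor that binds GC-rich sites and is among the earliest genes induced by growth factors, was measured by probe set 1417065_at. It read 6.21 in Cnot3+/- 1 and 7.78 in Cnot3+/- 2, against 5.81 in wild-type 1 and 5.54 in wild-type 2. Both Cnot3+/- arrays were above both wild-type arrays, and this was the single tested immediate early probe set whose groups did not overlap, where 14.6% of all probe sets tested had no overlap in that direction. The means were 6.99 ± 1.11 in Cnot3+/- and 5.67 ± 0.19 in wild-type (SD, n = 2 each), a difference of 1.32 (SE 0.50, 95% confidence interval 0.07 to 2.57). The unadjusted limma p was 0.0423 and the adjusted p was 0.9999. The group mean was carried largely by Cnot3+/- 2, since the difference was 0.54 without it and 2.10 without Cnot3+/- 1. Leaving out wild-type 1 gave 1.46, and leaving out wild-type 2 gave 1.18.

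The Fos genes encode the AP-1 subunits that pair with JUN proteins through leucine zippers and cannot bind DNA as stable pairs with each other. Fos read 4.25 in Cnot3+/- 1 and 6.35 in Cnot3+/- 2, against 4.36 in wild-type 1 and 4.64 in wild-type 2 (probe set 1423100_at). Cnot3+/- 1 was the lowest of the 4 arrays and Cnot3+/- 2 the highest, 4.28-fold apart, so the genotypes overlapped. A gap this wide between the Cnot3+/- arrays exceeded that of 99.6% of probe sets tested, while the wild-type gap of 1.22-fold exceeded that of 69.0%. The genotype difference was 0.80 (SE 0.66, interval -0.85 to 2.44, limma adjusted p = 0.9999), and it turned to -0.25 without Cnot3+/- 2. Fosb, which also pairs with JUN proteins, was dim throughout, at 3.61 in Cnot3+/- 1 and 3.52 in Cnot3+/- 2, against 3.44 in wild-type 1 and 3.39 in wild-type 2. Its mean of 3.49 lay below the filter at 4.06, under which probe sets were left out of the test. Its 4 values spanned 0.22, with both Cnot3+/- arrays above both wild-type arrays, and Cnot3+/- 2 was not the highest. RMA shrinks differences of dim probe sets.

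Jun, the AP-1 subunit whose activity is raised by JNK and which can pair with itself, was read by 2 probe sets that ranked Cnot3+/- 2 highest alike. On 1417409_at it read 7.51 in Cnot3+/- 1 and 9.22 in Cnot3+/- 2, against 7.33 in wild-type 1 and 7.80 in wild-type 2. On 1448694_at it read 7.16 in Cnot3+/- 1 and 8.33 in Cnot3+/- 2, against 7.21 in wild-type 1 and 7.15 in wild-type 2. On both, Cnot3+/- 1 lay at the wild-type level and Cnot3+/- 2 lay 1.42 and 1.12 above the highest of the other arrays. The differences were 0.80 (SE 0.55, interval -0.59 to 2.19) and 0.57 (SE 0.38, interval -0.38 to 1.51), each with a limma adjusted p of 0.9999. Without Cnot3+/- 2 they were -0.06 and -0.01. The 2 probe sets are readings of the same RNA and not separate evidence on the genotype.

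Junb, which encodes a JUN family subunit that often restrains JUN, varied between the wild-type animals as well. It read 5.96 in Cnot3+/- 1 and 6.69 in Cnot3+/- 2, against 5.28 in wild-type 1 and 6.20 in wild-type 2. The wild-type arrays were 1.89-fold apart, wider than at 99.1% of probe sets tested, and Cnot3+/- 1 lay between them. The difference was 0.58 (SE 0.38, interval -0.37 to 1.54, limma adjusted p = 0.9999), and leaving out a wild-type array gave 0.12 (wild-type 1) or 1.04 (wild-type 2). It was 0.22 without Cnot3+/- 2.

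Atf3, a stress-induced bZIP factor of the CREB/ATF family that pairs with JUN proteins, read high on the same single array. It read 5.11 in Cnot3+/- 1 and 6.39 in Cnot3+/- 2, against 5.42 in wild-type 1 and 5.47 in wild-type 2. Cnot3+/- 1 was the lowest of the 4 arrays and Cnot3+/- 2 the highest, 2.42-fold apart. The difference was 0.30 (SE 0.41, interval -0.73 to 1.33, limma adjusted p = 0.9999), and -0.34 without Cnot3+/- 2.

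**Figure D2:**
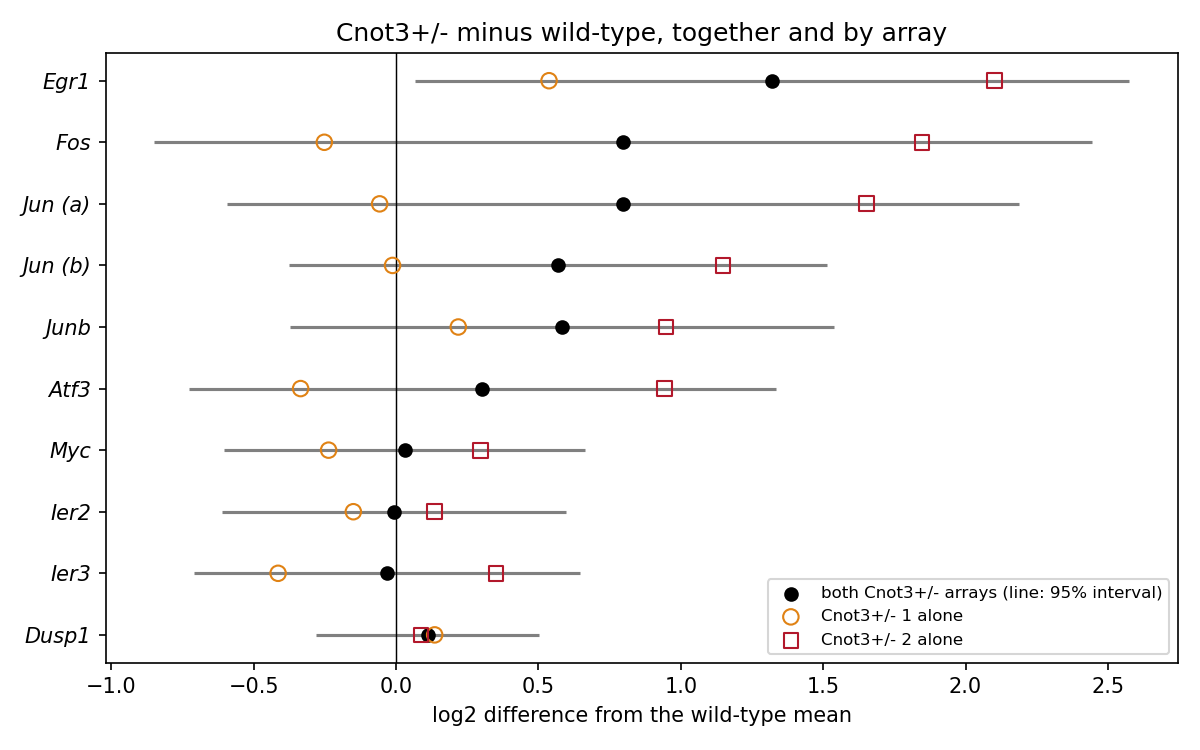
Log2 difference from the wild-type mean (horizontal axis) for the 10 immediate early probe sets tested, with both Cnot3+/- arrays together (black points, lines for 95% confidence intervals) and for Cnot3+/- 1 (open circles) and Cnot3+/- 2 (open squares) alone. The circles lie between -0.41 and 0.54 and the squares between 0.09 and 2.10, and the interval of Egr1 alone leaves out 0.

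Myc, the growth-promoting factor that pairs with MAX, did not separate the genotypes. It read 6.57 in Cnot3+/- 1 and 7.11 in Cnot3+/- 2, against 6.58 in wild-type 1 and 7.04 in wild-type 2. Each genotype had 1 lower and 1 higher array at matching levels, and the difference was 0.03 (SE 0.25, interval -0.60 to 0.66, limma adjusted p = 1). The interval leaves out a doubling or a halving but not smaller differences in either direction.

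Ier2 and Ier3 encode small immediate early proteins that are not DNA-binding factors of the AP-1 or EGR kind. Ier2 read 7.503 in Cnot3+/- 1 and 7.79 in Cnot3+/- 2, against 7.35 in wild-type 1 and 7.95 in wild-type 2. The Cnot3+/- arrays lay inside the wild-type range, with a difference of -0.01 (SE 0.24, interval -0.61 to 0.60, limma adjusted p = 1). Ier3, an ERK-responsive regulator of cell survival, read 3.72 in Cnot3+/- 1 and 4.49 in Cnot3+/- 2, against 4.20 in wild-type 1 and 4.08 in wild-type 2. The wild-type arrays lay inside the Cnot3+/- range, with a difference of -0.03 (SE 0.27, interval -0.71 to 0.65, adjusted p = 1). Its mean of 4.12 was just above the filter at 4.06, and that of the 3 arrays other than Cnot3+/- 2 was 3.999, below it.

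Dusp1 encodes the phosphatase that switches off p38, JNK and ERK and is itself induced by them and by glucocorticoids. It read 10.36 in Cnot3+/- 1 and 10.31 in Cnot3+/- 2, against 10.09 in wild-type 1 and 10.36 in wild-type 2. Its range over the 4 arrays was 0.27, the narrowest of the 10 probe sets tested. The difference was 0.11 (SE 0.16, interval -0.28 to 0.50, limma adjusted p = 0.9999), and the interval leaves out a doubling. Cnot3+/- 2, where Fos, Jun, Egr1 and Atf3 read highest, was not the highest array for Dusp1.

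The spread within the genotypes was therefore compared gene by gene. Cnot3+/- 2 was the highest of the 4 arrays for 8 of the 10 probe sets tested, against 24.2% of all probe sets. The 8 include Ier3, which passed the filter at 4.06 only through that array. The mean of its other 3 arrays was 3.999, so its rank there is not independent of the filter. Cnot3+/- 2 was at least 2-fold above Cnot3+/- 1 for 5 (Fos, Egr1, Atf3 and both of Jun), against 2.32% of all. It was at least 2-fold above each of the other 3 arrays for 4, against 1.21%. The exception among the 5 was Atf3, which lay 0.91 above the next array. No immediate early probe set tested was 2-fold apart between the wild-type arrays. The median absolute gap of the 10 was 0.96 between the Cnot3+/- arrays and 0.28 between the wild-type arrays, beside 0.18 and 0.18 over all probe sets tested. These counts describe 4 animals, and the probe sets share the same arrays, so they do not add up to replicates.

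**Figure D3:**
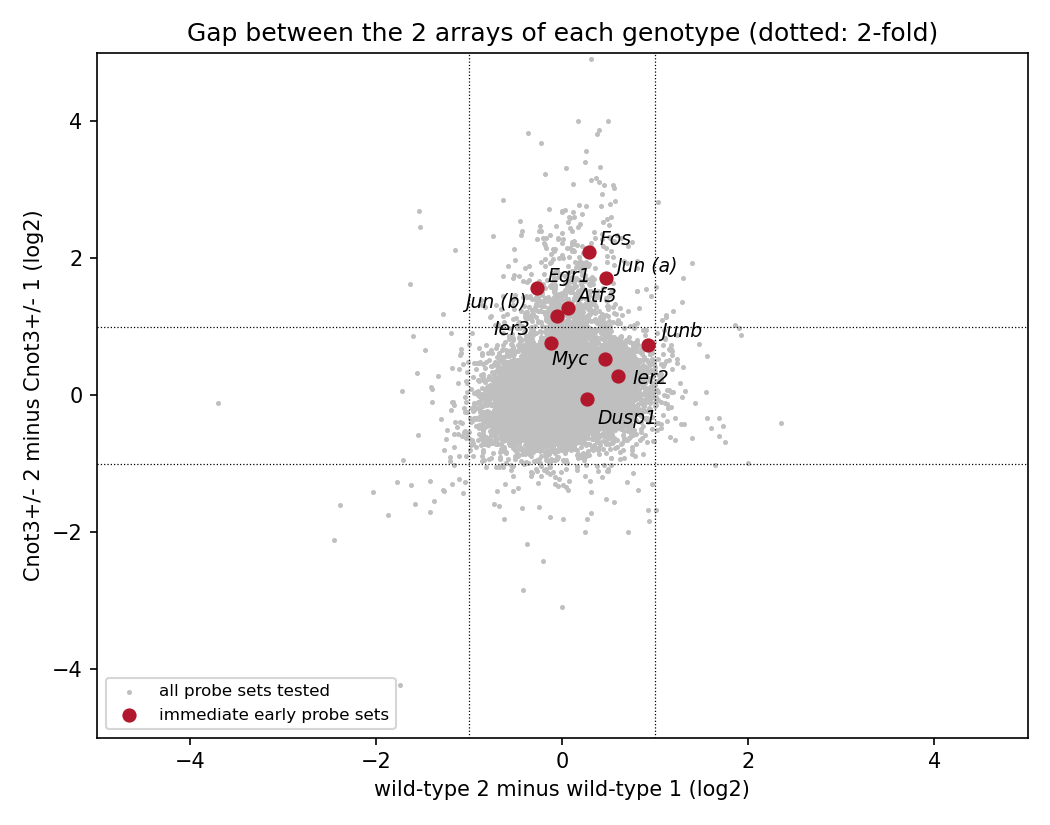
Difference between the arrays of each genotype for the 27022 probe sets tested, Cnot3+/- 2 minus Cnot3+/- 1 on the vertical axis and wild-type 2 minus wild-type 1 on the horizontal axis, both log2, with dotted lines at 2-fold. Red points are the 10 immediate early probe sets: Fos, Egr1, Atf3 and both of Jun lie above the upper dotted line, and Junb, at 0.92, lies closest to the right-hand one.

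Other immediate early genes were read through a list of 40, of which 37 were tested with 1 probe set each, and 0 passed in either direction, against 0.0149% upward and 0% downward of 13387 genes. Of the 37, 27 were above 0 and 10 below, with a median difference of 0.19, where 47.8% of all genes were above 0 with a median of -0.01. Without Cnot3+/- 2, 19 of 37 were above 0 with a median of 0.01, against 48.1% of all genes. Cnot3+/- 2 was the highest array for 24 of the 37, against 25.1% of genes. Groups did not overlap for 10 higher and 2 lower genes, against 14.1% and 17.4% of genes.

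The 4 largest differences in that list included 1 gene that was higher and 1 that was lower on both Cnot3+/- arrays. Btg2, which slows cell division and whose product contacts CCR4-NOT deadenylases, read 7.07 and 7.66 in Cnot3+/- 1 and 2 against 6.51 and 6.32 in wild-type 1 and 2, a difference of 0.95 (SE 0.23, limma adjusted p = 0.9999). Id1, a BMP target that blocks basic helix-loop-helix factors, read 6.41 and 6.95 in Cnot3+/- 1 and 2 against 7.30 and 7.86 in wild-type 1 and 2, a difference of -0.90 (SE 0.27, adjusted p = 0.9999). The other two were high on Cnot3+/- 2 alone. Tnfaip3, an NF-kappaB inhibitor, read 4.86 and 6.29 in Cnot3+/- 1 and 2 against 5.05 and 4.63 in wild-type 1 and 2. Irf1, an interferon-induced factor, read 8.0 and 9.53 in Cnot3+/- 1 and 2 against 7.98 and 8.19 in wild-type 1 and 2. Their differences were 0.74 (SE 0.47) and 0.68 (SE 0.49), and 0.02 and -0.09 without Cnot3+/- 2.

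Genes upstream of the immediate early factors were read next. Among 19 tested kinases and factors, 16 were above 0 and 3 below, with a median of 0.18 beside -0.01 over all genes, and 0 past the test. Without Cnot3+/- 2, 16 of the 19 were above 0 with a median of 0.19, and 14 of the genes above 0 were common to both counts. The ETS factor gene Elk3 was the largest at -0.82 (SE 0.40), followed by Egfr, the EGF receptor, at 0.60 (SE 0.30), the CREB family gene Crem at 0.42 (SE 0.17) and the SRF coactivator gene Mrtfa at 0.39 (SE 0.17). Elk3 read 4.67 and 5.93 in Cnot3+/- 1 and 2 against 6.17 and 6.06 in wild-type 1 and 2, and it differed by -0.19 without Cnot3+/- 1. Egfr differed by 0.23 without wild-type 1 and by 0.97 when wild-type 2 was left out instead, and Crem by 0.28 without Cnot3+/- 1. Mrtfa differed by 0.23 without Cnot3+/- 2.

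Of the 13 genes tested in a list of ERK feedback inhibitors, 8 were above 0 and 5 below, with a median of 0.06. None passed the test. The list also holds phosphatases of JNK and p38, Dusp16 among them. Without Cnot3+/- 2 the direction turned, with 4 of 13 above 0 and a median of -0.13. Dusp6, the cytoplasmic phosphatase of ERK, read 7.58 and 8.69 in Cnot3+/- 1 and 2 against 7.55 and 7.82 in wild-type 1 and 2. Its difference of 0.45 (SE 0.37) was -0.10 without Cnot3+/- 2. Dusp16, a phosphatase of JNK and p38, differed by 0.45 (SE 0.13), with 8.96 and 8.94 in Cnot3+/- 1 and 2 against 8.46 and 8.53 in wild-type 1 and 2. Spry2, an inhibitor of receptor tyrosine kinase signalling, differed by -0.44 (SE 0.16) and Dusp8 by 0.23 (SE 0.16). Dusp8 differed by 0.11 without Cnot3+/- 2 and by 0.36 without Cnot3+/- 1.

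Partners and regulators of the members had 0 genes past the test. Of 14 bZIP partners tested, 12 were above 0 with a median of 0.09, and 7 of 14 with a median of 0.01 without Cnot3+/- 2. The largest differences were those of Jdp2 at 0.39 (SE 0.26), Maff at 0.30 (SE 0.14), Jund at 0.26 (SE 0.36) and Mafg at 0.22 (SE 0.23). Jdp2 differed by 0.03 without Cnot3+/- 2, Mafg by 0.09 and Jund by -0.12. Without wild-type 1, Jund differed by -0.12 and Mafg by -0.06. Of 12 genes of the MYC network, 7 were above 0 with a median of 0.09 (8 with 0.15 without Cnot3+/- 2), and the largest differences were those of Mga at 0.45 (SE 0.23) and Mycl at -0.37 (SE 0.14). Mga differed by 0.15 without wild-type 1. Of 8 genes for AU-rich element binding proteins, which act on immediate early mRNAs, 4 were above 0 and 4 below with a median of 0.01. The largest was Khsrp at 0.33 (SE 0.26), and -0.05 without wild-type 1. Of 7 EGR1 corepressors and EGR targets, 5 were above 0 with a median of 0.03, and 3 of 7 with a median of -0.09 without Cnot3+/- 2. F3, the tissue factor gene, differed by -0.52 (SE 0.25), and -0.26 without wild-type 1, and the corepressor gene Nab1 by 0.35 (SE 0.16). None of the genes in these 4 lists passed the test.

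Markers of some other liver cell types were also high on Cnot3+/- 2. All 11 macrophage markers tested were highest on that array, against 25.1% of all genes. Their mean log2 value was 8.03 and 10.14 in Cnot3+/- 1 and 2 against 8.20 and 8.45 in wild-type 1 and 2. Marco, a scavenger receptor gene, read 6.40 and 9.49 in Cnot3+/- 1 and 2 against 5.73 and 5.85 in wild-type 1 and 2. Cd5l, a secreted protein gene of Kupffer cells, read 9.86 and 11.87 in Cnot3+/- 1 and 2 against 9.61 and 9.79 in wild-type 1 and 2. Marco and Cd5l were the only 2 of the 11 above 0 without Cnot3+/- 2, against 48.1% of all genes. The median difference of the 11 was then -0.35. The mean of the 10 immediate early probe sets, relative to the wild-type mean, was -0.06 and 0.95 in Cnot3+/- 1 and 2, against -0.13 and 0.13 in wild-type 1 and 2. That of the macrophage markers was -0.30 and 1.82 in Cnot3+/- 1 and 2, against -0.12 and 0.12 in wild-type 1 and 2. In whole liver, more cells of a type and more RNA per cell cannot be told apart. The part of these cells in the immediate early readings was not tested.

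The other cell types did not all follow, and the counts below stand beside 25.1% of all genes highest on Cnot3+/- 2. Markers of T, NK and B cells, 5 of 6 of them highest on Cnot3+/- 2, had means of 4.65 and 5.66 in Cnot3+/- 1 and 2 against 4.76 and 4.70 in wild-type 1 and 2. Stellate cell and fibroblast markers, 6 of 8 highest there, had means of 6.85 and 7.86 in Cnot3+/- 1 and 2 against 7.22 and 7.20 in wild-type 1 and 2. Endothelial markers, 3 of 9 highest there, had means of 6.18 and 6.94 in Cnot3+/- 1 and 2 against 7.04 and 7.10 in wild-type 1 and 2. Here Cnot3+/- 1 was the array that stood apart, at -0.89 from the wild-type mean, against -0.13 for Cnot3+/- 2. All 9 differences were below 0, and 5 of the 9 did not overlap, against 17.4% of all genes in that direction. Neutrophil markers, 3 of 8 highest there, had means of 4.88 and 5.17 in Cnot3+/- 1 and 2 against 4.94 and 4.87 in wild-type 1 and 2. Cholangiocyte markers, 2 of 3 highest there, had means of 4.70 and 4.94 in Cnot3+/- 1 and 2 against 4.46 and 4.61 in wild-type 1 and 2. The 7 hepatocyte markers tested, which include Alb and Apoa1, were bright on every array, with means of 13.59 and 13.49 in Cnot3+/- 1 and 2 against 13.35 and 13.51 in wild-type 1 and 2. The immediate early member Ier3 passed the filter only through Cnot3+/- 2 and is included in the member counts and means above. Some genes of the lists did so too on dim probe sets, the mean of their other 3 arrays lying below the filter. They were Cd3g among lymphocyte markers, Col1a1 among stellate markers, S100a8 among neutrophil markers and Klf4 among the other immediate early genes. Without them, Cnot3+/- 2 was highest for 4 of 5, 5 of 7, 2 of 7 and 23 of 36 genes of those lists. The lymphocyte means were then 4.78 and 5.67 in Cnot3+/- 1 and 2 against 4.96 and 4.81 in wild-type 1 and 2. The stellate means were 7.28 and 8.26 in Cnot3+/- 1 and 2 against 7.66 and 7.67 in wild-type 1 and 2. Without S100a8 the neutrophil means were 4.999 and 5.08 in Cnot3+/- 1 and 2 against 5.02 and 5.03 in wild-type 1 and 2. Most of the rise of the neutrophil mean on Cnot3+/- 2 was thus that of S100a8. No marker in these lists passed the test.

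**Figure D4:**
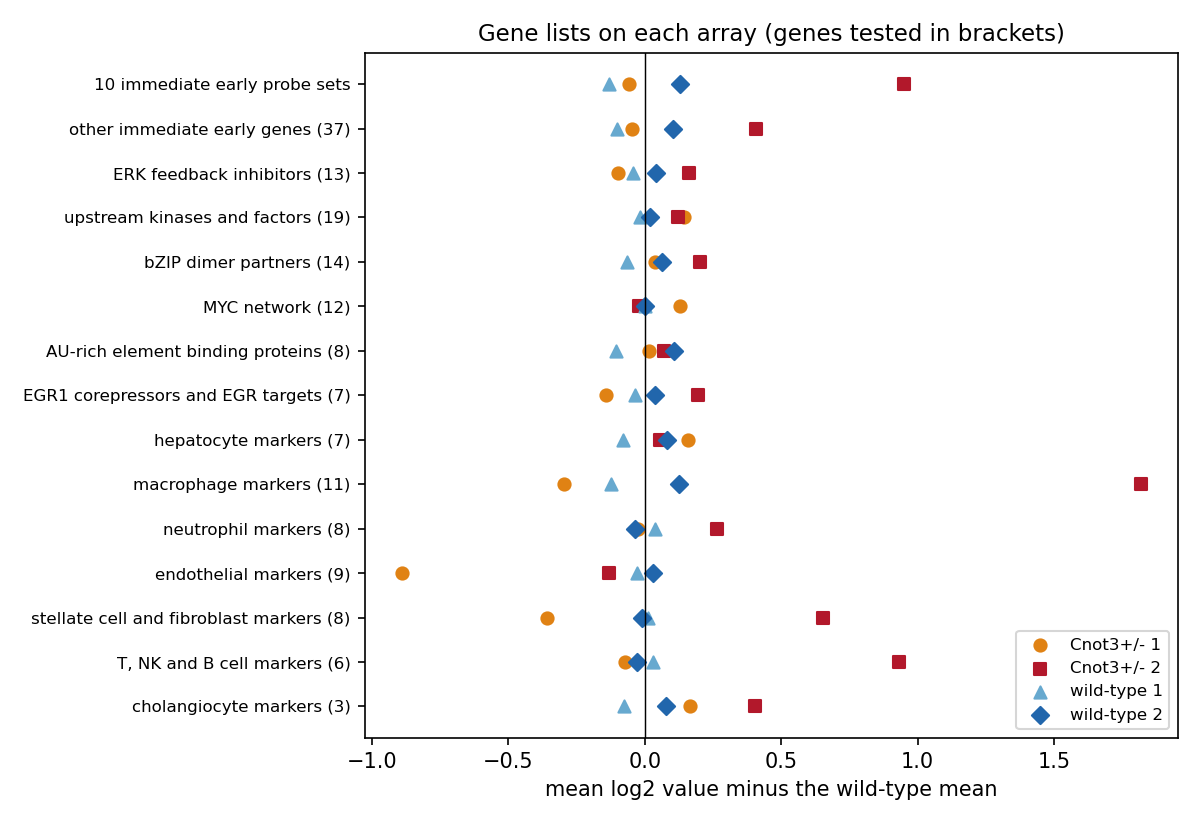
Mean log2 value of each gene list on each array minus its wild-type mean (horizontal axis), with the number of genes tested in brackets and 1 point per mouse. On Cnot3+/- 2 the immediate early probe sets stand at 0.95, the other immediate early genes at 0.41 and the macrophage markers at 1.82, while the wild-type arrays of every list lie between -0.13 and 0.13.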

How the data were processed

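Liver RNA of 4 mice was read on one-colour arrays. The deposited values are in log2 units and were produced by RMA, which the submitters' processing notes name without a version. That they are log2 and not centred per gene was judged from the values themselves. Scanner files were not used here. All 4 columns were mapped to samples by accession, leaving 0 columns over.

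The platform's annotation table gave 34958 probe sets 1 gene symbol, 932 several and 9211 none. After removal of the 64 control probe sets, those in the lowest 40% of mean value (under 4.06) were dropped, and 27022 remained. Genotypes were compared by limma 3.58.1 under R 4.3.3 (lmFit, eBayes; two-sided, no covariate), with Benjamini-Hochberg adjustment over all 27022 and a threshold of 0.05. Each probe set had 2 residual and 3.43 prior degrees of freedom (prior SD 0.167). The fit was tested on simulated data. SE is the moderated one and intervals cover 95%. The p-values set the genotype difference against the spread between the 2 mice of each genotype, moderated by that of all probe sets tested. The number of arrays limits the precision.

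In gene lists each gene was read through its brightest probe set on average, avoiding _x_at and _s_at ones where another existed. Of 184 list entries, 169 were on the array under 1 symbol. The genes named are all members and, per list, up to 4 with the largest absolute difference. Members and lists were chosen with earlier results of these data known. Alternatives were other dim filters, quantile normalization, 1 or averaged probe sets per gene, no variance moderation, array weights, a replicate block and leaving out each array.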

Additional observations from a re-analysis of the deposited data

How the results depend on the processing

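No immediate early probe set passed the threshold under any of the 12 alternatives, 5 of them having an unadjusted p below 0.05 without Cnot3+/- 1, where 1 array is set against 2. Over all probe sets, the number past the threshold was 2 in the analysis as reported, 1 without moderation of variances (0 higher and 1 lower, with 3 probe sets of zero spread left out), 0 with the replicate block and 0 without any 1 of the arrays. It stayed at 2 under the other 6. Egr1 and Junb kept their direction under every alternative. With 1 array left out, the difference ran from -0.25 to 1.85 for Fos, -0.058 to 1.65 and -0.012 to 1.15 for the Jun probe sets, -0.34 to 0.94 for Atf3, -0.24 to 0.30 for Myc, -0.31 to 0.29 for Ier2, -0.41 to 0.35 for Ier3 and -0.021 to 0.24 for Dusp1. The median of the 10 ran from -0.10 to 0.95. After quantile normalization Myc was at -0.011, and no other sign turned. Array weights lay between 0.999 and 1.001, since 2 arrays of a group cannot be weighted apart. Deviations of same-numbered arrays from their group means correlated at 0.17 across probe sets, but the labels do not say what a number shares, so the replicate block is given here only. With the block, 0 immediate early probe sets passed. Fosb, below the filter on dim probe sets, was tested where no filter was used and did not pass. Fos and Ier3 were left out with the lowest 60% of probe sets.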
